A study of Homo sapiens with 8 samples.

Results

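The genes described here are the cytokines, chemokines, colony-stimulating factors and tumor necrosis factor (TNF) family members of 2 human breast epithelial cell lines, with the receptors that share their names. They were chosen by symbol alone: every gene whose symbol begins with CXCL, CXCR, CCL, IL, CSF, TNFSF or TNFRSF and a number, together with CX3CL1, LIF and LIFR and leaving out antisense transcripts. This rule took 73 of the 13771 genes in the expression table: 12 chemokines, 14 interleukin, CSF or LIF ligands, 28 receptors for these, 6 TNF ligands, 12 TNF receptors and 1 divergent noncoding transcript, IL10RB-DT. The annotation used for gene lengths holds 177 protein-coding genes with such symbols, of which 72 were among the 73; the other genes of the family were not analysed here.

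RNA was sequenced from MCF10A, an immortalized and nontumorigenic breast epithelial line, and from DCIS.COM, a line of the same MCF10 series that models ductal carcinoma in situ. Each line carried either the lentiviral vector pCDH without an insert (pCDH-empty) or pCDH with the full-length long noncoding RNA HOTAIR (pCDH-HOTAIR), and all cells had been selected with puromycin. Each of the 4 groups had 2 libraries; nothing in the labels says that they came from separate cultures, so p-values measure the spread between these libraries, which may be technical. MCF10A medium held epidermal growth factor, hydrocortisone, insulin and cholera toxin besides horse serum, whereas DCIS.COM medium was described with horse serum alone, so line and medium cannot be told apart in any comparison between the lines.

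Cytokines and chemokines are secreted proteins that act on cells through dedicated receptors. Interleukin-1 (IL1A and IL1B) and TNF family ligands signal through adaptor proteins to the transcription factor NF-kB, which in epithelial cells drives chemokines such as CXCL8 and CXCL1 as well as its own inhibitors. Ligands of the IL6 group, among them LIF, signal through receptors that share the subunit IL6ST (gp130) and through JAK and STAT proteins. TRAIL, the product of TNFSF10, can trigger cell death through the receptors encoded by TNFRSF10A and TNFRSF10B, while TNFRSF10C and TNFRSF10D encode decoy receptors.

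The libraries held 19306864 to 34884841 reads in the genes of the table, the least in the pCDH-HOTAIR libraries of MCF10A. HOTAIR itself stood at log2 CPM (read counts scaled to library size) of 0.60 and 0.66 in MCF10A pCDH-empty and 7.90 and 7.92 in MCF10A pCDH-HOTAIR, and at 2.01 and 2.40 against 7.66 and 7.57 in DCIS.COM, so the labels matched the transgene in 8 of 8 libraries. All 11 breast epithelial markers examined were present. KRT5, KRT14, KRT17, KRT6A, EGFR and CDH1 were lower in DCIS.COM, and KRT8, KRT18, KRT19, EPCAM and the basal marker TP63 were higher. All were called in both comparisons except CDH1, which was called with the empty vector only. Of 12 leukocyte markers 4 were in the table: CD4, CD14 and CD68 were called lower in DCIS.COM in both comparisons and CD8A was called higher, with 1 to 2 reads in each MCF10A library and 17 to 38 in each of DCIS.COM. Their summed level was 43.5 to 48.7 CPM in MCF10A and 6.27 to 7.34 CPM in DCIS.COM; CD4 had 0 reads in each DCIS.COM library, the defining leukocyte gene PTPRC was not in the table, and the part of these genes' source in the cytokine levels was not tested. PECAM1, the 1 endothelial marker of 4 in the table, stood at 1.70 to 2.69 CPM in MCF10A and 10.1 to 13.3 CPM in DCIS.COM, and the 2 fibroblast markers of 6, COL1A1 and COL1A2, summed to 8.47 to 10.2 CPM in MCF10A pCDH-empty, 17.1 to 18.1 CPM in MCF10A pCDH-HOTAIR and 1.04 to 1.66 CPM in DCIS.COM; their part was not tested either. The library DCIS.COM pCDH-empty 1 stood apart, with a normalization factor of 0.932 against 0.985 to 1.04 in the other libraries; several values that it moves are given below also without it. With fewer cells of a type and less RNA per cell, a bulk library shows the same fall, and these cannot be told apart.

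Levels between genes were compared as RPKM, which scales reads to exon length and to library size. In MCF10A the gene with the highest level was CXCL1, a chemokine that attracts neutrophils, at a mean of 271 RPKM (258.8 to 285 over 4 libraries). IL20RB, a receptor subunit for the interleukins of the IL20 group, came next at 113 RPKM, followed by TNFRSF12A, the receptor for TWEAK, at 87.3 RPKM, IL18 at 71.0 RPKM, CXCL5 at 53.2 RPKM and CXCL8 at 48.7 RPKM. The ranges of CXCL5, 47.2 to 60.8 RPKM, and CXCL8, 46.1 to 52.9 RPKM, overlapped, so their order is not resolved. In DCIS.COM the order began instead with TNFRSF12A at 99.7 RPKM (73.2 to 115), TNFRSF21, also called death receptor 6, at 68.7 RPKM (64.4 to 75.3), and CXCL1 at 62.8 RPKM (44.2 to 72.0), whose ranges overlapped in turn. LIF, a cytokine of the IL6 group, ranked 4 in DCIS.COM at 38.8 RPKM and 38 in MCF10A at 1.79 RPKM. IL20RB went the other way, from rank 2 in MCF10A to rank 42 in DCIS.COM at 0.696 RPKM.

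**Figure D1:**
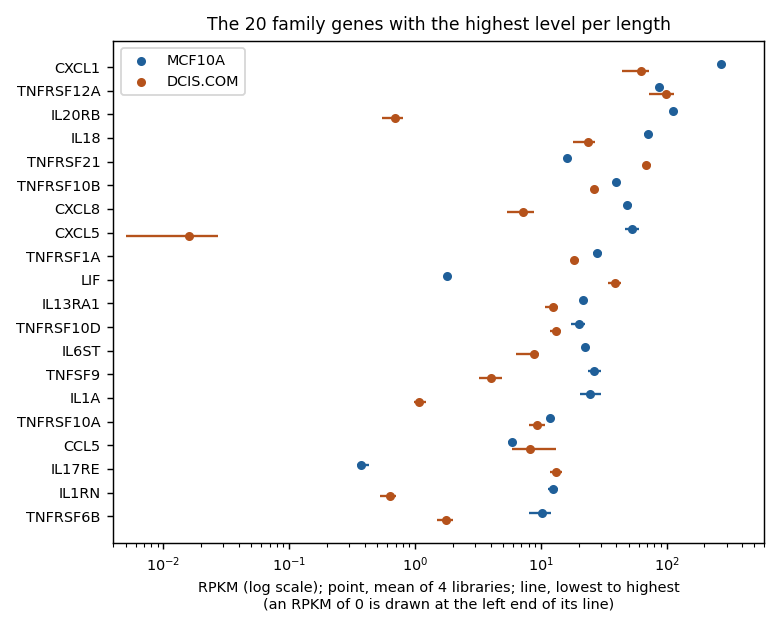
RPKM on a log axis for the 20 family genes with the highest mean over the 8 libraries; points are means of the 4 libraries of a line and lines run from the lowest to the highest. TNFRSF12A lay at like levels in both lines, IL20RB, CXCL5, IL1A and IL1RN lay far to the left in DCIS.COM, and LIF and IL17RE far to the right.

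The first question was how the family differed between the lines. With the empty vector 55 of 73 genes passed a limma test at an adjusted p of 0.05 and a 1.5-fold difference, 18 higher and 37 lower in DCIS.COM, where 46.3% of all 13771 genes passed, 22.5% higher and 23.8% lower. With HOTAIR 55 passed as well, 19 higher and 36 lower, where 43.7% of all genes passed, 22.0% higher and 21.7% lower. The median log2 fold change of the family was -0.60 with the empty vector and -0.56 with HOTAIR, where the median of all genes was -0.00012 and 0.0035. These 2 comparisons share no library, but both tests use the same spread for a gene, taken from all 8 libraries. In the family 18 genes were higher in both and 33 lower in both. The share of all genes called alike in both was not computed, so these counts and those by role below have no reference. The table holds genes above 0.5 CPM in at least 2 libraries, so a gene that entered through 1 line alone had to differ: 11 family genes did so through MCF10A and 4 through DCIS.COM. Among the 58 that were above this level in both lines, 40 were called in each comparison (69.0%), beside 42.5% and 39.7% of the 12852 such genes in the table.

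By role, 7 of 12 chemokines were lower in both comparisons and 2 higher, 9 of 14 interleukin, CSF or LIF ligands were lower and 3 higher, and 11 of 28 receptors of that group were lower and 9 higher. Of 6 TNF ligands 3 were lower in both and 1 higher, and of 12 TNF receptors 3 were lower and 3 higher. These counts hold the 15 genes that entered the table through 1 line and so had to differ. Without them, 5 of 9 chemokines were lower in both comparisons and 1 higher (CXCL5, CXCL6 and CX3CL1 drop out), 5 of 9 interleukin, CSF or LIF ligands were lower and 2 higher (CSF3, IL6, IL7, IL32 and IL34 drop out), and 7 of 23 receptors of that group were lower and 8 higher (CSF1R, IL1RL2, IL13RA2, IL20RA and IL31RA drop out). The TNF ligands keep their counts, and of 10 TNF receptors 2 were lower and 2 higher (TNFRSF14 and TNFRSF19 drop out). In 41 genes every DCIS.COM library lay below every MCF10A library, in 19 every one lay above, and in 13 the lines overlapped. The 41 and 19 include the 15 genes that entered through 1 line. The share of all genes that separate in this way was not computed, so these counts only describe the family. The summed level of the 73 genes was 2622 to 2744 CPM in MCF10A and 1582 to 1724 CPM in DCIS.COM. At the fold threshold, TNFRSF10B at -0.60 (-0.57 without DCIS.COM pCDH-empty 1, outside) lay just inside and IL1RAPL2 at -0.53 just outside with the empty vector, and CXCL16 at 0.59 just inside and IL10RB-DT at 0.57 just outside with HOTAIR.

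**Figure D2:**
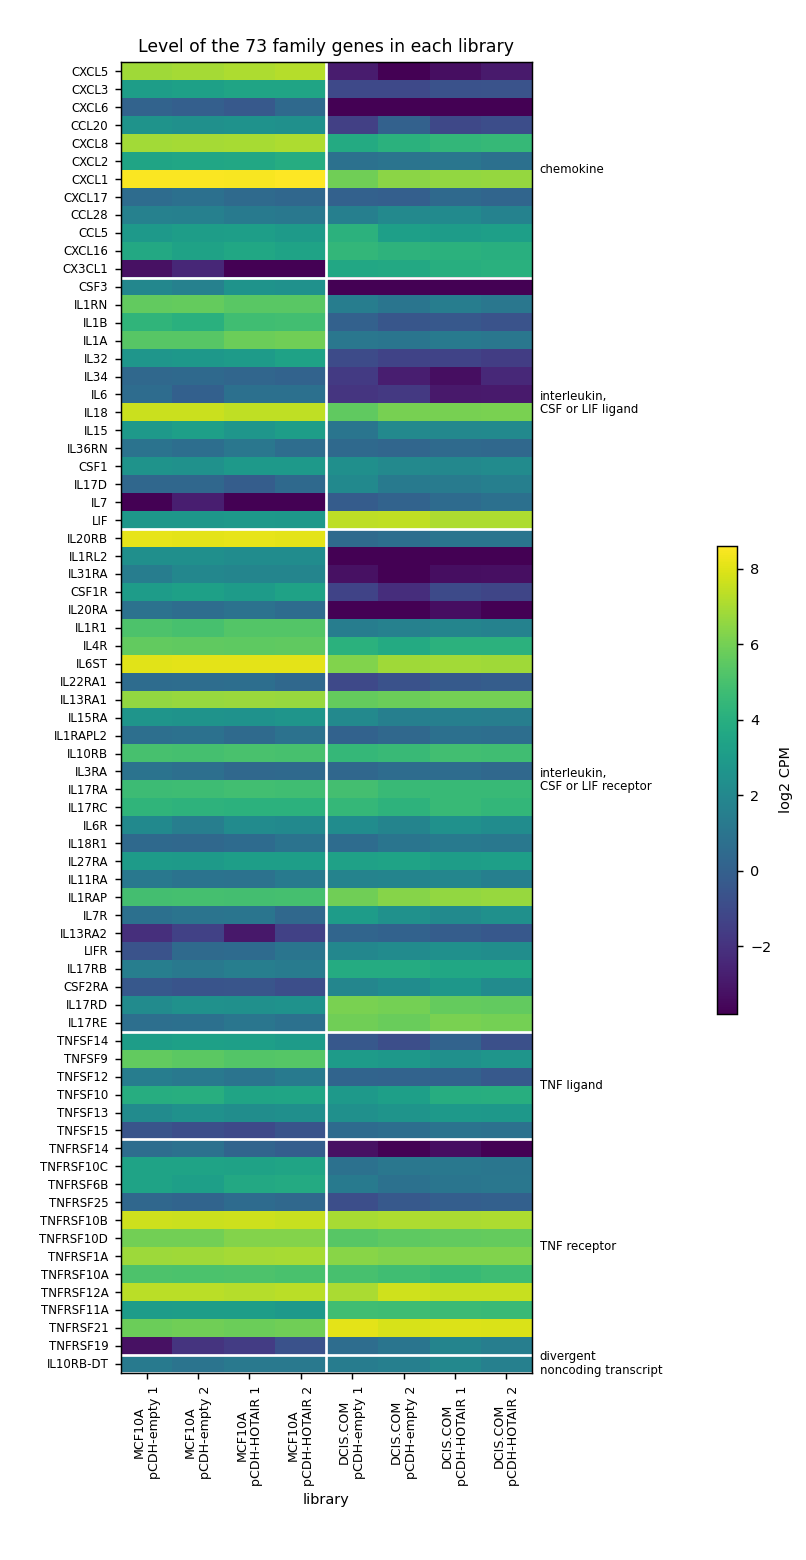
Log2 CPM of the 73 genes (rows, by role and then by their difference between the lines) in each of the 8 libraries (columns). The 4 MCF10A columns and the 4 DCIS.COM columns differ far more than the 2 vectors within a line do; CXCL5, CSF3 and IL1RL2 are dark in all 4 DCIS.COM libraries and CX3CL1 and IL7 in all 4 of MCF10A.

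Among the chemokines, the 6 measured ligands of the receptor CXCR2, CXCL1, CXCL2, CXCL3, CXCL5, CXCL6 and CXCL8, were all lower in DCIS.COM. Of these, CXCL5 and CXCL6 entered the table through MCF10A alone, so the filter fixed their direction. CXCR2 ligands bring neutrophils into tissue; CXCR2 itself was not in the table. Summed, they stood at 618.0 and 636 CPM in MCF10A pCDH-empty, 639 and 701 CPM in MCF10A pCDH-HOTAIR, 76.3 and 108 CPM in DCIS.COM pCDH-empty and 119 and 123 CPM in DCIS.COM pCDH-HOTAIR. Their genes lie together on chromosome 4 of hg19, between positions 74606236 and 74964913, in the order CXCL8, CXCL6, CXCL1, CXCL5, CXCL3 and CXCL2. Because these neighbors moved the same way, the 100 bases before each RefSeq gene start (GRCh38.p14) are shown, 5′ to 3′ on the strand of the gene, with the letters GGAATTTCC, part of a well-known NF-kB binding sequence, in capitals.

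CXCL1 (chr4:73869293-73869392, plus strand): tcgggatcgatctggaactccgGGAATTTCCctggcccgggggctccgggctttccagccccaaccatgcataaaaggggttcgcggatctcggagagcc
CXCL2 (chr4:74099196-74099295, minus strand): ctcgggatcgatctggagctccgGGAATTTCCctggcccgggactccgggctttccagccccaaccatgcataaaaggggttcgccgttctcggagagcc
CXCL3 (chr4:74038690-74038789, minus strand): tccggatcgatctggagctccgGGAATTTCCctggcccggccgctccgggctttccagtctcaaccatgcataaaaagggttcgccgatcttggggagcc
CXCL5 (chr4:73998678-73998777, minus strand): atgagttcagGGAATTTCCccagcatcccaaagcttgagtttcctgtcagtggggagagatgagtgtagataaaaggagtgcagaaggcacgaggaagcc
CXCL6 (chr4:73836578-73836677, plus strand): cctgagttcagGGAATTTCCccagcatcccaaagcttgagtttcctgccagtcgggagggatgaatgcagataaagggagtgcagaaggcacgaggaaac
CXCL8 (chr4:73740469-73740568, plus strand): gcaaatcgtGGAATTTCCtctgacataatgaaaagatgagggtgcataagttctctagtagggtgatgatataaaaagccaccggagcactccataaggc

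The capitals begin 78 bases before the start in CXCL1 and CXCL3, 77 in CXCL2, 90 in CXCL5, 89 in CXCL6 and 91 in CXCL8. The stretches form families: CXCL1 and CXCL3 share 90% of positions without a gap, and CXCL5 and CXCL6 share 91% after a shift of at most 15 bases, whereas CXCL8 shares at most 37% with any of the other 5. The letters GGAATTTCC were chosen after these sequences had been read. Searched on both strands in the 250 bases before the start, they occurred in 137 of 27305 genes with an entry (0.502%) and in 6 of the 54 family genes with one, which are the 6 shown. The longer NF-kB consensus, searched by name on both strands, occurred in 11.8% of all genes and in 20 of 54 family genes, 14 of them among the 26 that were lower in DCIS.COM in both comparisons and 3 among the 13 that were higher. It can cover the shorter letters, and of the genes shown all but CXCL8 hold both. The AP-1 site TGANTCA, which reads the same on both strands, occurred in 8.06% of all genes and in 9 of 54 family genes, 7 of the 26 lower and 2 of the 13 higher. Some of these lower genes entered the table through MCF10A alone and so had to differ. They were CXCL5, CXCL6, IL6, IL32 and TNFRSF14 with the NF-kB consensus and CSF1R with the AP-1 site. TNFRSF19, a higher gene with the consensus, entered through DCIS.COM alone. Shares with a motif among all lower or all higher genes were not computed. A match of letters is a description of the sequence; binding was not measured.

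CXCL8 (interleukin-8) was counted at 119 and 120 CPM in MCF10A pCDH-empty, 128 and 137 CPM in MCF10A pCDH-HOTAIR, 13.9 and 17.1 CPM in DCIS.COM pCDH-empty and 21.0 and 23.0 CPM in DCIS.COM pCDH-HOTAIR. The lines did not overlap, and the log2 fold change of DCIS.COM over MCF10A was -2.96 ± 0.11 (SE, n = 2 per group, limma adjusted p = 1.31e-07) with the empty vector and -2.58 ± 0.11 with HOTAIR. CXCL1 stood at 364 and 374 CPM in MCF10A pCDH-empty, 353 and 389 CPM in MCF10A pCDH-HOTAIR, 60.2 and 88.5 CPM in DCIS.COM pCDH-empty and 95.1 and 98.1 CPM in DCIS.COM pCDH-HOTAIR. The lowest CXCL1 value belonged to DCIS.COM pCDH-empty 1, the library that stood apart, and the difference between the lines with the empty vector was -2.34 ± 0.15, or -2.06 without that library. CXCL5 showed the widest gap of the family: 3581 and 3195 reads in MCF10A pCDH-empty and 2622 and 2959 in MCF10A pCDH-HOTAIR against 2 and 0 in DCIS.COM pCDH-empty and 1 and 2 in DCIS.COM pCDH-HOTAIR. Read for read this was a ratio of 3334 with the empty vector, with an exact counting interval of 923 to 27538, and of 3266 with HOTAIR (1117 to 15844); such intervals cover counting error only. CXCL6 had 14 to 32 reads in each MCF10A library and 0 in each DCIS.COM library, so it was at least 18.4-fold higher in MCF10A with the empty vector and at least 23.4-fold with HOTAIR, taking 3 reads over the group as the limit that a count of 0 allows. CXCL2 and CXCL3 differed by -2.58 ± 0.16 and -4.24 ± 0.14 with the empty vector and by -2.84 and -4.10 with HOTAIR.

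CX3CL1 (fractalkine), a chemokine that is made as a membrane-bound protein, moved the opposite way. It entered the table through DCIS.COM alone, so the filter fixed its direction. It had 1 and 3 reads in MCF10A pCDH-empty and 0 and 0 in MCF10A pCDH-HOTAIR, against 375 and 345 reads in DCIS.COM pCDH-empty and 548 and 557 in DCIS.COM pCDH-HOTAIR, or 12.5 to 16.6 CPM. With HOTAIR it was thus at least 209.8-fold higher in DCIS.COM. CCL20, a ligand of CCR6, was lower in DCIS.COM, at 5.30 to 5.90 CPM in MCF10A against 0.299 to 0.970 CPM, with log2 fold changes of -3.19 ± 0.41 and -3.46 ± 0.41. CXCL16, a transmembrane chemokine, was higher, by 0.80 ± 0.14 with the empty vector and by 0.59 ± 0.14 with HOTAIR; the second call was lost with log2(CPM + 0.5) (0.57), with log2(CPM + 1) (0.55), without MCF10A pCDH-HOTAIR 2 (0.47, adjusted p = 0.0541) and without DCIS.COM pCDH-HOTAIR 1 (0.54, under the fold threshold). For CCL5, DCIS.COM pCDH-empty 1 stood at 18.2 CPM while the other 7 libraries lay between 7.54 and 9.21 CPM; the lines did not pass the test with the empty vector (0.69 ± 0.27, limma adjusted p = 0.0546) or with HOTAIR (0.08 ± 0.27, limma adjusted p = 0.805). Without that library the first value was 0.20. The difference of the HOTAIR effect between the lines for CCL5 was -0.60, and it was -0.11 without DCIS.COM pCDH-empty 1 and -1.09 without DCIS.COM pCDH-empty 2, where it passed (limma adjusted p = 0.00275).

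Of the 9 measured genes of the IL1 system 6 were lower in DCIS.COM in both comparisons, 1 was higher and 2 did not pass. Of all genes 46.3% were called with the empty vector and 43.7% with HOTAIR, and the share called alike in both was not computed. Among the lower genes, IL1RL2 entered the table through MCF10A alone, so the filter fixed its direction. IL1B, the secreted form of interleukin-1 that is cut into its active form by caspase-1, stood at 19.5 and 16.7 CPM in MCF10A pCDH-empty, 27.9 and 28.6 CPM in MCF10A pCDH-HOTAIR, 0.965 and 0.634 CPM in DCIS.COM pCDH-empty and 0.703 and 0.566 CPM in DCIS.COM pCDH-HOTAIR. The DCIS.COM values rest on 17 to 29 reads a library, and the differences between the lines were -4.41 ± 0.20 (adjusted p = 4.98e-07) with the empty vector and -5.33 ± 0.20 (adjusted p = 1.86e-07) with HOTAIR. IL1A, which acts on the same receptor, stood at 41.2 and 41.2 CPM in MCF10A pCDH-empty, 57.1 and 60.3 CPM in MCF10A pCDH-HOTAIR and 1.98 to 2.45 CPM over the 4 DCIS.COM libraries. IL1RN, the secreted antagonist that blocks that receptor, stood at 49.9 and 51.5 CPM, 42.4 and 43.6 CPM, and 1.98 to 2.66 CPM in the same order. Both agonists and the antagonist were therefore lower in DCIS.COM, with IL1A at -4.29 ± 0.11 and -4.65 ± 0.11 and IL1RN at -4.42 ± 0.16 and -4.15 ± 0.16.

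The signaling receptor IL1R1 was lower too, at 32.1 to 39.5 CPM in MCF10A and 2.66 to 3.49 CPM in DCIS.COM, a log2 fold change of -3.53 ± 0.11 and -3.54 ± 0.11. IL1RAP, the accessory protein that IL1R1 needs to signal, ran against the rest of the system: it was counted at 30.0 to 31.1 CPM over the MCF10A libraries, 60.5 and 82.5 CPM in DCIS.COM pCDH-empty and 97.0 and 102 CPM in DCIS.COM pCDH-HOTAIR. It was higher in DCIS.COM by 1.22 ± 0.13 and 1.70 ± 0.13, the first being 1.44 without DCIS.COM pCDH-empty 1. IL1RL2, the receptor for the IL36 ligands, had 90 to 160 reads in each MCF10A library and 0 in each DCIS.COM library, at least 97.8-fold and 106-fold higher in MCF10A. IL18, which is also activated by caspase-1, stood at 172 to 198 CPM in MCF10A and 47.3 to 69.7 CPM in DCIS.COM, lower by -1.82 ± 0.13 (-1.58 without DCIS.COM pCDH-empty 1) and -1.35 ± 0.13. Its receptor IL18R1 and the IL36 antagonist IL36RN did not pass the test in either comparison, at 0.38 and 0.50 and at -0.42 and -0.43. IL1A, IL1B, IL36RN and IL1RN lie together on chromosome 2 of hg19 (113531502 to 113891593), while IL1R1, IL1RL2 and IL18R1 lie between 102681004 and 103015237 on the same chromosome.

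In the IL6 group, LIF rose and IL6 fell between MCF10A and DCIS.COM. IL6 entered the table through MCF10A alone, so the filter fixed its direction. LIF stood at 6.83 and 6.61 CPM in MCF10A pCDH-empty, 7.43 and 6.91 CPM in MCF10A pCDH-HOTAIR, 164 and 169 CPM in DCIS.COM pCDH-empty and 135 and 133 CPM in DCIS.COM pCDH-HOTAIR. The difference between the lines, 4.61 ± 0.07 (adjusted p = 5.65e-09) with the empty vector and 4.21 ± 0.07 with HOTAIR, was far beyond the spread of the libraries. Its receptor subunit LIFR was higher as well, at 0.577 to 1.95 CPM in MCF10A and 3.73 to 5.23 CPM in DCIS.COM, by 2.12 ± 0.34 and 1.55 ± 0.34. The shared subunit IL6ST was lower, at 268 to 275 CPM in MCF10A against 76.9 and 115 CPM in DCIS.COM pCDH-empty and 117 and 114 CPM in DCIS.COM pCDH-HOTAIR, by -1.52 ± 0.16 (-1.23 without DCIS.COM pCDH-empty 1) and -1.24 ± 0.16. IL6 had 25 to 44 reads in each MCF10A library, 6 and 6 in DCIS.COM pCDH-empty and 2 and 2 in DCIS.COM pCDH-HOTAIR. IL11RA passed at 0.72 ± 0.20 and 0.65 ± 0.20, although neither call was firm: the first was lost with log2(CPM + 1) and without MCF10A pCDH-empty 2 (0.61, adjusted p = 0.0727), the second with log2(CPM + 0.5), with log2(CPM + 1), without MCF10A pCDH-HOTAIR 1 (0.45, adjusted p = 0.112) and without DCIS.COM pCDH-HOTAIR 1 (0.49, adjusted p = 0.128). IL6R did not pass (0.24 and 0.23). LIF overlaps the antisense genes LIF-AS1 and LIF-AS2, and the strand setting of the counting is not given in the sources used here, so their reads cannot be told apart.

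Of the colony-stimulating factors, CSF3, the granulocyte factor, had 118 and 81 reads in MCF10A pCDH-empty and 112 and 110 in MCF10A pCDH-HOTAIR, and 0 in each DCIS.COM library. It was at least 65.3-fold higher in MCF10A with the empty vector and at least 130-fold with HOTAIR. CSF1R, the receptor for CSF1 and IL34 and best known from macrophages, stood at 7.85 to 10.3 CPM in MCF10A and 0.149 to 0.422 CPM in DCIS.COM, a difference of -4.88 ± 0.29 and -4.30 ± 0.29. Its ligand CSF1 differed by -0.32 ± 0.15 (adjusted p = 0.0905) and -0.80 ± 0.15, the second called, and its other ligand IL34 was lower by -2.64 ± 0.42 and -3.08 ± 0.42 on 1 to 7 reads in each DCIS.COM library. Of these genes, CSF3, CSF1R and IL34 entered the table through MCF10A alone, so the filter fixed their direction. CSF2RA, the receptor subunit for GM-CSF, was higher in DCIS.COM, at 3.66 to 6.81 CPM against 0.5004 to 0.706 CPM, by 2.52 ± 0.24 and 3.16 ± 0.24.

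The receptor with the widest difference was IL20RB, at 279 and 271 CPM in MCF10A pCDH-empty, 278 and 278 CPM in MCF10A pCDH-HOTAIR, 1.33 and 1.53 CPM in DCIS.COM pCDH-empty and 1.97 and 1.97 CPM in DCIS.COM pCDH-HOTAIR. The log2 fold change was -7.52 ± 0.09 (adjusted p = 2.60e-09) and -7.09 ± 0.09. IL20RB overlaps NCK1 on the same strand and IL20RB-AS1 on the other, so part of its reads may be shared. IL20RA, which pairs with IL20RB in the receptor for IL19, IL20 and IL24, had 29 to 54 reads in each MCF10A library and 1 read in all over the 4 DCIS.COM libraries. IL31RA, a receptor subunit for the itch cytokine IL31, had 68 to 101 reads in each MCF10A library and at most 1 in each of DCIS.COM, and IL22RA1 was lower by -1.49 ± 0.22 and -0.75 ± 0.22. IL4R and IL13RA1, which together form a receptor for IL4 and IL13, were lower by -1.67 and -1.39 and by -0.91 and -0.69. IL20RA and IL31RA entered the table through MCF10A alone and IL13RA2 through DCIS.COM alone, so the filter fixed their direction. IL13RA2, which binds IL13 without the signaling tail of the other receptors, was called higher at 1.95 ± 0.50 and 1.96 ± 0.50 on 1 to 8 reads in each MCF10A library, and lost the first call without MCF10A pCDH-empty 1 (adjusted p = 0.0601) and the second without DCIS.COM pCDH-HOTAIR 1 (adjusted p = 0.0512).

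Of 5 receptors of the IL17 family 3 were higher in DCIS.COM in both comparisons and 2 did not pass. Of all genes 22.5% were called higher with the empty vector and 22.0% with HOTAIR. The share of all genes higher in both was not computed, so this count only describes these receptors. IL17RE, a receptor subunit for the epithelial cytokine IL17C, stood at 1.60 to 2.01 CPM in MCF10A and 55.1 to 68.6 CPM in DCIS.COM, higher by 5.09 ± 0.12 and 5.10 ± 0.12. IL17RD, also known as Sef for its restraint of fibroblast growth factor signaling, stood at 4.39 and 5.41 CPM in MCF10A pCDH-empty, 5.27 and 5.75 CPM in MCF10A pCDH-HOTAIR, 69.4 and 63.6 CPM in DCIS.COM pCDH-empty and 51.5 and 49.9 CPM in DCIS.COM pCDH-HOTAIR, and IL17RB, the receptor for IL25, was higher by 2.46 ± 0.13 and 2.16 ± 0.13. The shared subunits IL17RA and IL17RC, at 23.2 to 29.3 and 18.2 to 23.5 CPM over the 8 libraries, did not pass the 1.5-fold threshold. The ligand IL17D was higher by 1.33 ± 0.30 and 1.31 ± 0.30. IL7 and its receptor IL7R were both higher in DCIS.COM: IL7 had 2 reads in all over the 4 MCF10A libraries against 24, 28, 49 and 55 in DCIS.COM, and IL7R rose by 1.88 ± 0.26 and 1.57 ± 0.26. IL7 entered the table through DCIS.COM alone, so the filter fixed its direction and the pair cannot be read as moving together. IL15 was lower by -1.52 ± 0.31 (-1.01 without DCIS.COM pCDH-empty 1) and -0.89 ± 0.31 and its receptor IL15RA by -0.82 and -1.07, and IL32 by -3.92 ± 0.20 and -4.60 ± 0.20. The direction of IL32 was fixed by the filter too, since it entered through MCF10A alone.

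Among the TNF ligands, TNFSF9 (4-1BB ligand) fell from 39.0 to 48.8 CPM over the MCF10A libraries to 5.32 to 7.98 CPM in DCIS.COM, by -2.64 ± 0.12 and -2.76 ± 0.12. TNFSF14 (LIGHT) was lower by -3.77 ± 0.30 and -3.41 ± 0.30, and 1 of its receptors, TNFRSF14 (HVEM), fell from 17 to 46 reads in each MCF10A library to at most 1 in each of DCIS.COM. TNFRSF14 entered the table through MCF10A alone, so the filter fixed its direction. TNFSF12 (TWEAK) was lower by -1.16 ± 0.22 and -1.27 ± 0.22 while its receptor TNFRSF12A did not pass the test (0.04 ± 0.18 and 0.30 ± 0.18, with 95% intervals of -0.37 to 0.45 and -0.11 to 0.71). TNFSF15 was the only TNF ligand called higher in both comparisons, at 1.31 ± 0.23 and 1.68 ± 0.23. TNFSF12 and TNFSF13 overlap the readthrough gene TNFSF12-TNFSF13, and TNFRSF6B overlaps RTEL1-TNFRSF6B; how shared reads were split is not given in the sources used here, so these values are uncertain.

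Among the TNF receptors, TNFRSF21 stood at 55.7 to 61.0 CPM in MCF10A and 232 to 271 CPM in DCIS.COM, higher by 2.12 ± 0.09 and 2.05 ± 0.09. TNFRSF11A (RANK), the receptor for RANKL in breast epithelium and bone, was higher by 1.68 ± 0.10 and 1.63 ± 0.10, and TNFRSF19 (TROY) by 3.45 ± 0.46 and 2.79 ± 0.46 on 1 to 11 reads in each MCF10A library. TNFRSF19 entered the table through DCIS.COM alone, so the filter fixed its direction. TNFRSF6B, a soluble decoy for Fas ligand, was lower by -2.26 ± 0.16 and -2.69 ± 0.16. The 4 TRAIL receptors lie together on chromosome 8 of hg19 (22877646 to 23082615), yet differed in size: the decoy TNFRSF10C was lower by -2.43 ± 0.14 and -2.27 ± 0.14, whereas TNFRSF10A, TNFRSF10B and TNFRSF10D lay between -0.66 and -0.23, TNFRSF10B being called with the empty vector and TNFRSF10D with HOTAIR. TNFRSF1A, the main TNF receptor of epithelial cells, was at 110 to 128 CPM in MCF10A and 75.2 to 85.3 CPM in DCIS.COM, and passed the fold threshold with HOTAIR only (-0.47 and -0.72); the difference of these 2 values is -0.25 ± 0.11 and did not pass the test (adjusted p = 0.465).

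The second question was what HOTAIR changed within a line. The paper, with edgeR at an FDR of 0.05, reported more genes in each line than were called here. A count of 0 below therefore does not show that HOTAIR had no effect. In MCF10A 0 of 73 family genes were called, where 3 of all genes were (0.0218%); with limma-voom on recovered reads 0 were called as well, where 5 of all genes were. At an unadjusted p under 0.05 there were 10 family genes, 8 higher and 2 lower with HOTAIR, or 13.7%, where 7.28% of all genes reached that p. The agonists of the IL1 receptor were among them. IL1A stood at 41.2 and 41.2 CPM with the empty vector and 57.1 and 60.3 CPM with HOTAIR, a log2 fold change of 0.51 ± 0.11 with an unadjusted p of 0.00144 and an adjusted p of 0.247, and over the alternatives of processing its adjusted p ran from 0.0878 to 0.796. IL1B stood at 19.5 and 16.7 against 27.9 and 28.6 CPM, 0.64 ± 0.20 (95% interval 0.17 to 1.11, adjusted p = 0.50). In both genes the HOTAIR libraries lay above the empty-vector libraries, and neither difference passed the test over all genes. CSF3 stood at 3.78 and 3.04 CPM against 5.78 and 5.50 CPM (0.72 ± 0.22, adjusted p = 0.499), TNFRSF10D at 61.9 and 63.1 against 80.0 and 79.6 CPM (0.35 ± 0.07, adjusted p = 0.215), and CSF1 at 5.84 and 5.49 against 7.33 and 7.31 CPM (0.37 ± 0.15, adjusted p = 0.638). LIFR at 0.86 ± 0.34 and TNFRSF19 at 1.46 ± 0.46 rest on 18 to 39 and on 1 to 11 reads a library, and CX3CL1 had 4 reads with the empty vector and 0 with HOTAIR, too few for a fold. TNFRSF14 was lower with HOTAIR, at -0.69, and was not called. Of the chemokines, CXCL1 differed by 0.01 ± 0.15, and the summed CXCR2 ligands given above, which were not tested, ended at 636 CPM with the empty vector and began at 639 CPM with HOTAIR.

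In DCIS.COM 0 of 73 were called, where 12 of all genes were (0.0871%), and limma-voom on recovered reads called 1, where it called 12 of all genes. At an unadjusted p under 0.05 there were 17, 12 higher and 5 lower with HOTAIR, or 23.3%, where 17.5% of all genes reached that p. CXCL8 stood at 13.9 and 17.1 CPM with the empty vector and 21.0 and 23.0 CPM with HOTAIR (0.51 ± 0.11, adjusted p = 0.147). Over the alternatives its log2 fold change ran from 0.094 to 0.66, the highest without DCIS.COM pCDH-empty 2. CXCL1 was at 0.40 and not called, with a range of 0.13 to 0.68, the highest again without DCIS.COM pCDH-empty 2. IL20RB stood at 1.33 and 1.53 against 1.97 and 1.97 CPM (0.45 ± 0.09, adjusted p = 0.138). IL1RAP stood at 60.5 and 82.5 against 97.0 and 102 CPM (0.49 ± 0.13, adjusted p = 0.204), a value that was 0.27 (adjusted p = 0.0741) without DCIS.COM pCDH-empty 1 and 0.71 (adjusted p = 6.09e-05) without DCIS.COM pCDH-empty 2. LIF was lower with HOTAIR in both libraries, at 164 and 169 against 135 and 133 CPM (-0.31 ± 0.07, adjusted p = 0.179), IL17RD likewise (-0.39 ± 0.12, adjusted p = 0.229), and IL6 at -1.13 ± 0.26 on 6, 6, 2 and 2 reads. Among genes at low levels, IL22RA1 stood at 0.67, IL7 at 0.68, CSF1R at 0.62, TNFRSF19 at 0.80 and IL34 at -0.61, none called. IL1B, at -0.28 ± 0.20 with a 95% interval of -0.75 to 0.19, did not differ beyond its spread in the main fit. Over the alternatives its value ran from -0.56 to -0.0057. The libraries of DCIS.COM pCDH-empty decided these counts: without DCIS.COM pCDH-empty 1, the library that stood apart, 1 family gene was called where 60 of all genes were, and without DCIS.COM pCDH-empty 2, which leaves that library as the only control and assumes that it varies like the others, 10 were called, in a setting where 1403 of all 13771 genes were.

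**Figure D3:**
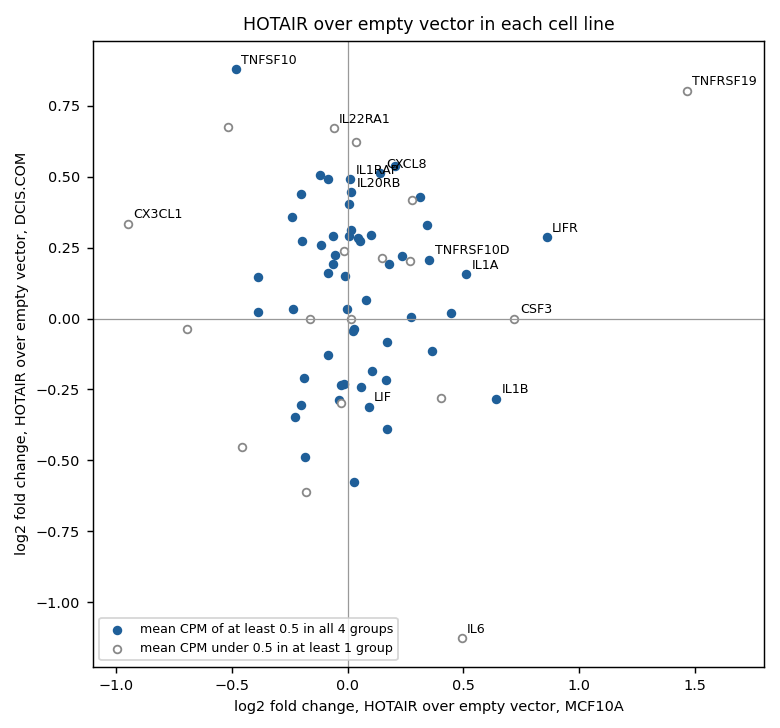
Log2 fold change of HOTAIR over empty vector in MCF10A (horizontal) and in DCIS.COM (vertical) for the 73 genes; open points are the 18 genes with a mean under 0.5 CPM in at least 1 group. None was called in either line; TNFSF10 lies at the upper left, at -0.48 and 0.88, and IL1B at 0.64 and -0.28.

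The family gene with the smallest p for HOTAIR in DCIS.COM was TNFSF10, which encodes TRAIL (hg19 chromosome 3, 172223298 to 172241265, minus strand). It stood at 15.01 and 15.8 CPM in MCF10A pCDH-empty, 10.8 and 11.2 CPM in MCF10A pCDH-HOTAIR, 7.42 and 9.18 CPM in DCIS.COM pCDH-empty and 15.1 and 15.4 CPM in DCIS.COM pCDH-HOTAIR, on 210 to 535 reads a library. HOTAIR libraries thus lay below the empty vector in MCF10A and above it in DCIS.COM, without overlap. The log2 fold change was 0.88 ± 0.12 in DCIS.COM (adjusted p = 0.0632) and -0.48 ± 0.12 in MCF10A (adjusted p = 0.321), and the difference between these was 1.36 ± 0.17 (95% interval 0.98 to 1.75, adjusted p = 0.0624). All 3 miss the threshold of 0.05 by the test as designed. The DCIS.COM value passed under 4 of 10 alternatives of scale, filter or model (log2(CPM + 1), median centring, correction for GC content and limma-voom on recovered reads) and without either of the DCIS.COM pCDH-empty libraries, its adjusted p running from 0.000107 to 0.669; for the difference the range was 0.000112 to 0.459. Between the lines TNFSF10 was lower in DCIS.COM with the empty vector (-0.89 ± 0.12, called) and not with HOTAIR (0.47 ± 0.12, below the fold threshold). Of its receptors, TNFRSF10B, at 127 to 135 CPM over the DCIS.COM libraries, differed with HOTAIR by -0.0010 ± 0.06 in MCF10A and 0.03 ± 0.06 in DCIS.COM. TNFRSF10A differed by -0.02 ± 0.10 and -0.23 ± 0.10, and the decoys TNFRSF10C by -0.01 ± 0.14 and 0.15 ± 0.14 and TNFRSF10D by 0.35 ± 0.07 and 0.21 ± 0.07, in the same order; none of the 4 was called in either line.

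The third question was whether the effect of HOTAIR differed between the lines. By the test of the difference itself 0 of 73 were called, where 6 of all genes were (0.0436%), and limma-voom on recovered reads called 1, where it called 5 of all genes; 15 reached an unadjusted p under 0.05, or 20.5%, where 10.5% of all genes did. After TNFSF10 the smallest p belonged to IL6 (-1.62 ± 0.36, adjusted p = 0.278, on few reads), LIF (-0.40 ± 0.10, adjusted p = 0.322) and IL20RB (0.43 ± 0.12, adjusted p = 0.397). IL1B differed by -0.92 ± 0.29 (adjusted p = 0.413). Over the alternatives this value ran from -1.20, without DCIS.COM pCDH-empty 2, to -0.65, so its size depended on the control libraries used. The sign of the HOTAIR effect was the same in both lines in 38 of 73 genes, 26 higher and 12 lower, or 52.1%, where it was the same in 48.5% of all genes.

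Other genes of these pathways were also compared between the lines, where 46.3% of all genes were called with the empty vector and 43.7% with HOTAIR. Of 18 genes of the NF-kB core and its feedback, all measured, 9 were lower and 1 higher in DCIS.COM in each comparison, so that 55.6% were called in each, with medians of -0.55 and -0.65. The feedback inhibitors TNFAIP3 (A20) and NFKBIA (IkBa) were lower by -4.34 ± 0.12 and -1.98 ± 0.07 with the empty vector, and NFKB2 and RELB by -1.97 ± 0.11 and -0.91 ± 0.11. NFKB1, NFKBIZ, TNIP1 and CYLD were lower in both comparisons, IKBKB with the empty vector and BCL3 with HOTAIR; the gene called higher was MAP3K14 (1.20) with the empty vector and NFKBIB (0.69) with HOTAIR. Of 16 TNF receptor adaptors and death-signaling genes 14 were measured, of which 7 were lower with the empty vector, 6 were lower with HOTAIR and 0 were higher in either, with medians of -0.55 and -0.54. The shares called, 50.0% and 42.9%, lay near those of all genes. BIRC3, an inhibitor of apoptosis that NF-kB drives, fell by 5.23 ± 0.25 on the log2 scale with the empty vector, and CASP10, TRADD, TRAF3 and CFLAR were lower in both comparisons. BIRC2 and CASP8, the latter at -0.60 ± 0.07, passed with the empty vector and MLKL with HOTAIR.

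Of 17 adaptors of the IL1 and Toll receptors 14 were measured, of which 6 were lower and 3 higher with the empty vector and 5 and 3 with HOTAIR, or 64.3% and 57.1% called, with medians of -0.27 and -0.29. IRAK3, which restrains this pathway, was lower by -4.46 ± 0.31 with the empty vector and MYD88, its central adaptor, by -1.16 ± 0.16; IRAK2, TAB2 and CASP1 were lower in both comparisons and IRAK4 with the empty vector. The inflammasome adaptor PYCARD (3.99), PELI1 (2.39) and SIGIRR (1.92) were the 3 that were higher. Of 23 JAK, STAT and SOCS genes 22 were measured, of which 10 were lower and 1 higher with the empty vector and 9 and 1 with HOTAIR, with medians of -0.45 and -0.44; the shares called, 50.0% and 45.5%, lay near those of all genes. The feedback inhibitor SOCS3 was at -1.72 ± 0.19 with the empty vector; JAK1, STAT6, SOCS1 and SOCS2 were among those lower in both comparisons, and SOCS5 (0.61) was higher. STAT3, the main STAT of the IL6 group, was at -0.43 ± 0.10 and below the fold threshold. Of 43 cytokines and receptors whose names fall outside the symbol rule 13 were measured, of which 5 were lower and 4 higher in each comparison, or 69.2% called, with medians of -0.16 and -0.21. Those lower were ACKR3, CD70 at -4.06 ± 0.11, TGFB1 at -2.40 ± 0.14, FAS at -2.04 ± 0.09 and the oncostatin M receptor OSMR at -1.20 ± 0.08; NGFR, CCR1 and EDA2R were higher in both comparisons, TGFB2 with the empty vector and EDA with HOTAIR. In these 5 lists 0 genes were called for HOTAIR over empty vector in either line or for the difference between the lines.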

How the data were processed

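Total RNA of 8 samples (2 cell lines, 2 vectors, 2 libraries each) was sequenced by the authors as paired-end ScriptSeq v2 libraries, aligned to hg19 with Rsubread, counted on UCSC KnownGene genes with featureCounts and normalized with edgeR; versions, strand setting and normalization factors are not given in the sources used here. The deposited values are log2 CPM with a prior of 0.0717 CPM at 0 reads, for genes above 0.5 CPM in at least 2 libraries. Low values rose in equal steps, and 100% came out as whole reads (tolerance 0.05), 19306864 to 34884841 per library, so 1 read is worth 0.0281 to 0.0516 CPM. Trimmed-mean factors computed from these reads equalled the implied factors to 3 digits.

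limma 3.58.1 (R 4.3.3) was fitted with a mean-variance trend to the 4 group means over all 8 libraries and 13771 genes, with Benjamini-Hochberg adjustment; calls need an adjusted p under 0.05 and, except for the difference between lines, a 1.5-fold change. Fold changes are on the scale of the deposited log2 values and understate changes of low genes. An exact permutation test of 2 against 2 libraries could not reach 0.05. The procedure was also run on simulated data without broad line differences or a library that stands apart, so that run does not bear on those. Exon lengths, GC content and hg19 positions came from GENCODE 44 lifted to GRCh37; all 73 genes had a length. Promoters came from RefSeq (GRCh38.p14), with an entry for 54 of the 73. Libraries of the same replicate number showed no large shared shift (correlations of same-number deviations -0.016 to 0.066). Such correlations cannot show whether these libraries were handled together, and the main fit did not pair them. Alternatives were other pseudocounts, a mean CPM of at least 2, no trend, a replicate block, separate fits, quantile and median scaling, GC correction, limma-voom, other fold thresholds and each library left out. Named genes were IL1B and, per HOTAIR comparison, every called gene and up to 15 with the smallest p and a 1.5-fold change. Between lines they were the 12 largest called in each direction and those at the fold threshold. The 10 highest levels per length and the IL1, IL6 and LIF, CXCR2, TRAIL and CSF systems were added. Other genes are named for their role or a small p beside these. For some genes chosen by this rule, the HOTAIR effect or its difference between the lines is not reported here. The gene family, lists and tests were chosen with earlier results of these data known. Some genes of the pathway lists are counted but not reported here by name.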

Additional observations from a re-analysis of the deposited data

How the results depend on the processing

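With 2 libraries a group, depth limits the low genes: a member with 0 reads in a group has a fold bound and no fold, and the 18 genes with a mean under 0.5 CPM in at least 1 group give wide intervals. The number of family genes called between the lines stayed within 1.5 times of 55 under all alternatives run: 41 to 60 with the empty vector and 40 to 62 with HOTAIR over the 12 settings, the lowest with a mean CPM of at least 2, which tests fewer genes, and with a log2 fold change of at least 1.5, and 53 to 57 and 49 to 55 with each library left out. HOTAIR over empty vector in MCF10A gave 0 under all 16. In DCIS.COM it gave 1, TNFSF10, with log2(CPM + 1), median centring, GC content correction and limma-voom, and 0 to 10 with each library left out. The difference between the lines gave 1, TNFSF10, with log2(CPM + 1), GC content correction and limma-voom, and 0 to 20 with each library left out, the highest without DCIS.COM pCDH-empty 2, where 4414 of all genes passed; over all genes the difference gave 6 calls, 26 with GC content correction and 0 with the replicate block or without the trend, and HOTAIR in DCIS.COM gave 12, 46 with GC content correction, 20 with the block and 0 with the compared groups alone. HOTAIR in MCF10A gave 3 over all genes and 1 to 11 over the 12 settings, 51 with 1 of the DCIS.COM pCDH-empty libraries left out, whichever it was, and 1 without each other library, and the line comparisons fell to 2418 and 2357 calls at a log2 fold change of at least 1.5 from 6370 and 6018. The replicate block left the family counts at 0, 0, 0, 55 and 55. Whether libraries of the same number were handled together is not known. Of the values for single genes, 1771 kept their direction and side of the threshold, 28 gained a call, 14 lost one and 4 changed sign: the difference of the HOTAIR effect on TNFRSF19 was 0.12 with log2(CPM + 0.5), 0.24 with log2(CPM + 1) and -1.32 to 0.0014 with each library left out, positive only without MCF10A pCDH-empty 1, and IL6R between the lines with the empty vector was -0.051 to 0.53 with each library left out, negative only without MCF10A pCDH-empty 2. The cause of these changes was not tested.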
